A study of Hypericum perforatum with 6 samples.

Results

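Transcripts that were read in every aposporous library and in no sexual library were examined in the ovule nucellus of *Hypericum perforatum* L. They were chosen by their measured reads, as transcripts with 10 or more reads in each of the 3 aposporous libraries and 0 reads in each of the 3 sexual libraries, and 209 of the 67022 transcripts in the table met this rule. The difference between the phenotypes is therefore how they were selected and not a result. Each library was made from nucellus taken by laser microdissection at the premeiotic stage, with the RNA of 3 plants pooled, either sexual or aposporous apomictic. The plants were tetraploid accessions grown in a greenhouse. A library is called a pool below, so each phenotype has 3 pools. Sexual and aposporous plants were different plants, so a sequence carried only by plants of 1 phenotype and a gene expressed only in that phenotype cannot be told apart in these values. In bulk tissue, fewer cells of a type and less RNA per cell cannot be told apart either. Separate origin of the pools rests on their labels.

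In sexual plants, the embryo sac of the ovule forms from a spore that meiosis has reduced. In aposporous plants it forms from a somatic cell of the ovule, often in the nucellus that surrounds the meiocyte, and carries the unreduced maternal genome. Transcripts of the nucellus before meiosis are therefore studied as candidates for the switch between both routes. The ovule transcriptome was assembled *de novo* from the reads of both phenotypes, and the assembler groups transcripts that share sequence into a locus. A transcript name gives the locus, the number of the transcript within it and the count of transcripts that the assembler built there. In L3451_T15_28, the locus is 3451 and the transcript is number 15 of 28. The table holds part of these transcripts, and it pairs none of them with a gene. The exceptions are 18 variants that the study annotated as the *IDN2-like* and *FDM-like* family, and 0 of the 18 were members. No gene name or function can thus be given for a member, and markers of the nucellus could not be checked.

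Mapped reads ran from 33953493 to 38661339 in the sexual and from 29355488 to 39483349 in the aposporous pools. Values are RPKM, which divides the reads of a transcript by its length and by the library total, and read numbers were recovered from RPKM. Between 68.1% and 77.8% of transcripts had a read in a sexual pool and between 73.1% and 76.4% in an aposporous pool. A count of 0 allows up to 3 reads, which in a transcript of 1 kb is 0.0776 to 0.0884 RPKM in the sexual pools. Such limits cover counting error only.

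Most members were expressed at low levels. Their mean over aposporous pools ran from 0.453 to 38.5 RPKM, with a median of 1.76 RPKM. Only 18 members were above 10 RPKM and 56 were below 1 RPKM. Transcripts that also had 10 or more reads in each aposporous pool but were not members, 27709 in number, had a median of 9.18 RPKM. A rule that asks for 0 sexual reads favours low levels, so level is not independent of the rule. Members made up 2.39% of transcripts with 10 or more reads in each aposporous pool below 100 summed reads and 0.135% from 1000 on. The members took 63326 reads in all, 12310 in aposporous pool 1, 31036 in pool 2 and 19980 in pool 3. The 10 members with the most reads held 34.5% of these reads. Aposporous reads were also set against the limit of 3 reads over the sexual group as a whole, scaled to library totals. The resulting bounds ran from 12.6-fold to 1305-fold, with a median of 45.9. Because members were chosen for 0 sexual reads, these bounds describe the chosen values and do not estimate the difference. The bound was 100 or more for 47 members and under 20 for 30 members.

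**Figure D1:**
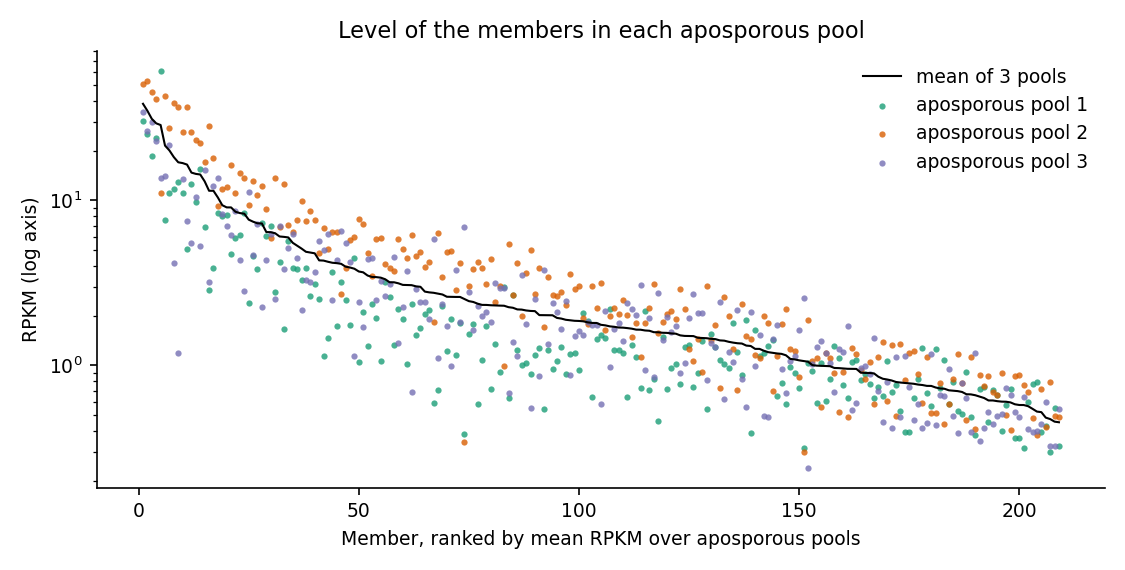
RPKM (log axis) of each of the 209 members in the 3 aposporous pools, ranked by their mean, which the line gives. Levels fall from 38.5 to 0.453 RPKM, and points of pool 2 lie above the line for most of the upper ranks. Sexual pools, all at 0 reads, are not drawn.

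The most abundant member was L2_T817237_835163, a transcript of 740 nt with 30.3, 50.8 and 34.4 RPKM in aposporous pools 1 to 3. It was at 38.5 ± 10.8 RPKM (SD, n = 3 pools), and 2996 reads stood behind these values against 0 in the sexual pools. L3451_T15_28, of 772 nt, followed with 25.3, 53.2 and 26.2 RPKM, a mean of 34.9 ± 15.8 (SD, n = 3). It was the only transcript of its locus in the table. L2_T39121_835163, of 1119 nt, had the most reads of all members, with 608, 1796 and 1317 in aposporous pools 1 to 3. Its level was 31.2 ± 13.4 RPKM (SD, n = 3), and its bound against the limit of 3 sexual reads was the highest of the list. In each of these 3 transcripts pool 2 was highest and pool 1 lowest.

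Members were neither the longest nor the shortest transcripts of the assembly. They were 220 to 1821 nt long with a median of 740 nt, against a median of 848 nt for the 27709 others with 10 or more reads in each aposporous pool and of 590 nt for the whole table. Longer transcripts reach 10 reads at a lower level, so length is not independent of the rule. The longest member, L2_T355739_835163, was at 2.66, 2.66 and 1.39 RPKM in aposporous pools 1 to 3. The shortest, L2_T195003_835163, was at 3.10, 7.57 and 3.68 RPKM. Split by reads summed over aposporous pools, the median length of members and others was 698 and 661 nt below 100 reads, 741 and 776 nt from 100 to below 300 reads, 782.5 and 841 nt from 300 to below 1000 reads, and 851 and 959 nt from 1000 reads on.

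The rule had clear neighbours on either side. The members just inside it were L589_T118_125, with 12, 14 and 10 reads in aposporous pools 1 to 3, and L2_T714564_835163, with 12, 15 and 10 reads. In 19 members at least 1 pool had exactly 10 reads. A further 195 transcripts had 0 sexual reads and at least 5 reads in each aposporous pool without reaching 10 in all of them. On the sexual side, 53 transcripts with 10 or more reads in each aposporous pool missed the rule by a single read, and 152 had 1 to 3 sexual reads. Some of them were more abundant than any member. L2_T252036_835163 had 1 read in sexual pool 3 against 24.4, 108 and 9.28 RPKM in aposporous pools 1 to 3, a ratio of scaled reads of 3662 (95% counting interval 657 to 144678). This transcript was picked for its high level beside exactly 1 sexual read. Its ratio therefore describes chosen values and does not estimate the difference, and the interval leaves out the spread between pools. L2_T55638_835163 also had 1 read in sexual pool 3, against 19.4, 83.2 and 37.8 RPKM. Annotated variants of the *FDM-like* family, whose *Arabidopsis* members act in RNA-directed DNA methylation, were also near misses. L2_T405120_835163 of *FDM1-like C* had 1 read in sexual pool 2 and 48, 117 and 106 reads in the aposporous pools, and L2_T484402_835163 of *FDM4-like C* had 2 reads in sexual pool 1 and 211, 416 and 43 reads.

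The exchanged rule found fewer transcripts. With 10 or more reads in each sexual pool and 0 in each aposporous pool, 57 transcripts were counted. Members made up 0.749% of the 27918 transcripts with 10 or more reads in each aposporous pool, and the exchanged list made up 0.219% of the 26023 with 10 or more reads in each sexual pool. The exchanged list had a median of 1.76 RPKM over the sexual pools and a highest mean of 29.0 RPKM. The median coefficient of variation (CV, the SD over the mean) was 48.3% over sexual pools in the exchanged list and 46.3% over aposporous pools in the members. Over all transcripts with 10 or more reads in each pool of the phenotype, it was 34.8% for sexual and 23.8% for aposporous pools. The difference in number between the lists was not tested.

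Expression was compared across all transcripts with limma on log2(RPKM + 1), over the 33117 that reached 10 reads in 3 or more libraries. All 209 members passed this filter, which they could do only through the aposporous pools. A call required FDR ≤ 0.05. Of the 33117, 497 (1.50%) were called higher in aposporous ovules, and 103 of the 209 members were among them. Because the rule used the same contrast, that count is a description only. The log2 fold changes of members ran from 0.54 to 5.27 with a median of 1.40, beside a median of 0.03 over all tested transcripts. These fitted values depend on the pseudocount of 1 RPKM and understate transcripts near 0. The number of calls among members fell when 1 pool was left out. Members called numbered 23, 14 and 43 without sexual pool 1, 2 or 3, and 55, 39 and 40 without aposporous pool 1, 2 or 3. Calls higher over all tested transcripts fell as well, to 158, 92 and 354 and to 241, 206 and 204. Members with an unadjusted p under 0.05 (limma) numbered 208 with all pools and 205 to 208 without 1 pool. Over all tested transcripts such p-values numbered 4571 with all pools and 3705 to 6258 without 1 pool. The members' counts rest on the contrast that chose them, so they too are a description only.

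The aposporous pools differed more for members than for other transcripts. The median CV over aposporous pools was 46.3% for members and 23.7% for the 27709 others. All 3 pools lay within 2-fold of each other for 66 members (31.6%), against 70.2% of the others, and the pools lay over 4-fold apart for 45 members. The spread of members did not narrow with depth as it did elsewhere. Below 100 summed reads the median CV was 36.4% for members and 34.2% for others. From 1000 reads on it was 51.6% for the 17 members and 17.1% for the others. Between aposporous pools 1 and 2, the correlation of log2 RPKM across the 209 members was 0.82, and across the others it was 0.96. For pools 1 and 3 these values were 0.72 and 0.94, and for pools 2 and 3 they were 0.73 and 0.92, across transcripts, which are not independent replicates.

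Aposporous pool 2 was the highest pool for 134 of the 209 members (64.1%), pool 3 for 52 and pool 1 for 23. Among the others with 10 or more reads in each aposporous pool, pool 2 was highest for 29.2% and pool 3 for 43.2%. Pool 2 exceeded both other pools by more than 2-fold in 47 members (22.5%), against 3.13% of the others. In the same way, pool 1 lay more than 2-fold below both in 30 members (14.4%), against 1.36%. The share of members highest in pool 2 was 49.4% below 100 summed reads and 88.2%, or 15 of 17, from 1000 reads on. RPKM is scaled to the mapped reads of each library, and pool 2, with 35445589 mapped reads, was not the deepest. Its part in the choice of members is given below.

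**Figure D2:**
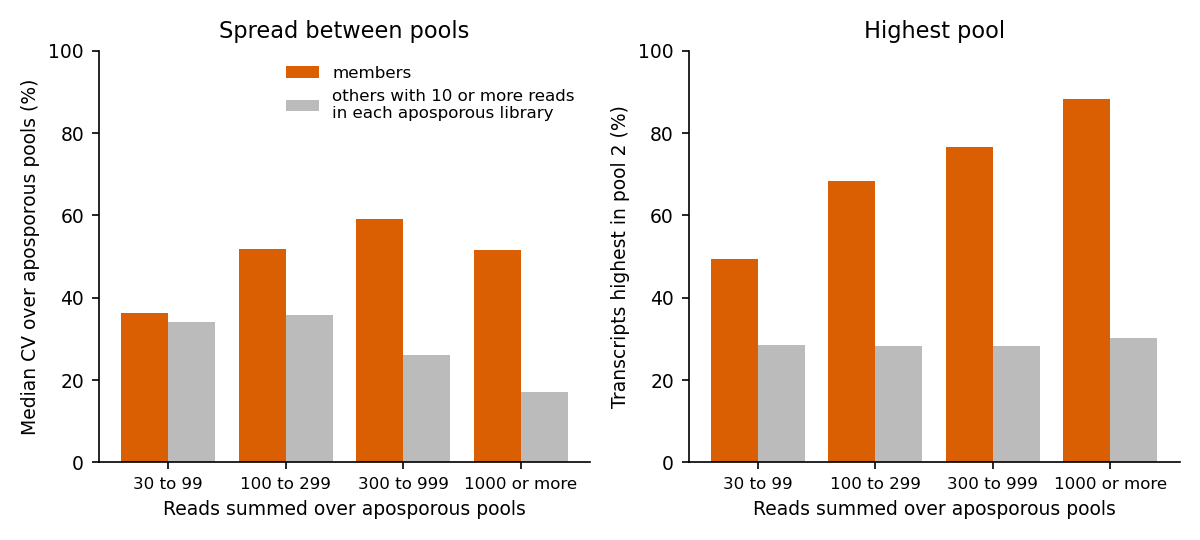
Left, median CV of RPKM over aposporous pools (%). Right, transcripts with their highest RPKM in aposporous pool 2 (%). Both are split by reads summed over aposporous pools, for members and for other transcripts with 10 or more reads in each aposporous pool. From 1000 reads on, the CV is 51.6% in members and 17.1% in others, and pool 2 is highest in 88.2% and 30.2%.

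Single members ranged from even to strongly uneven. L2_T266773_835163, with the smallest CV at 1.78%, was at 1.85, 1.79 and 1.84 RPKM in aposporous pools 1 to 3. L18837_T18_21, with the largest at 148%, was at 0.384, 0.345 and 6.86 RPKM, so 288 of its 313 reads came from pool 3. The next 2 were picked after their values were seen. L7683_T7_8 was at 61.2 RPKM in pool 1 against 11.0 and 13.7 in pools 2 and 3, the highest value of any member in any pool. L77038_T6_6 was at 28.3 RPKM in pool 2 against 2.86 and 3.19 in pools 1 and 3.

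Values in a library that had no part in the choice were then read. For each library in turn, transcripts were chosen by the rule on the other 5. Of the 285 transcripts chosen without sexual pool 1, 73.3% had 0 reads in it (exact 95% binomial interval 67.8% to 78.4%), and so did 73.5% of all 9428 transcripts with 0 reads in sexual pools 2 and 3. For sexual pool 2 the share was 77.1% of 271 (71.7% to 82.0%) against 69.3%. For sexual pool 3 it was 59.2% of 353 (53.9% to 64.4%) against 46.8%. Most transcripts that failed there had few reads. The median among those with a read was 4.5 in sexual pool 1, 4.0 in pool 2 and 5.5 in pool 3. Still, 21, 15 and 51 of them had 10 or more reads in the pool left out, up to 163, 48 and 310 reads. Transcripts are not independent, so the intervals cover counting error only.

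The aposporous pools gave a wider range. Of 324 transcripts chosen without aposporous pool 1, 64.5% had 10 or more reads in it (exact 95% binomial interval 59.0% to 69.7%), against 95.5% of all transcripts with 10 or more reads in pools 2 and 3. Without pool 3, 81.0% of 258 did (75.7% to 85.6%) against 96.6%. Without pool 2, 383 transcripts were chosen and 54.6% of them had 10 or more reads in it (49.4% to 59.6%) against 94.0%. Complete absence was most frequent there too. In pool 2, 80 of the 383 (20.9%, 16.9% to 25.3%) had 0 reads, although they had 10 or more in both other aposporous pools, against 1.08% of all transcripts read so. The shares with 0 reads were 4.01% in pool 1 and 5.43% in pool 3. The 80 reached a mean of 33.0 RPKM over pools 1 and 3, with a median of 1.13 RPKM. Pool 2 was therefore the pool in which members were most often highest and in which transcripts chosen on the other 5 libraries were most often at 0. The background shares were not matched for level. Transcripts chosen without aposporous pool 1, 2 or 3 that are not members had median levels of 0.944, 1.03 and 1.03 RPKM over the aposporous pools used. How far levels near the threshold lower these shares was not tested.

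**Figure D3:**
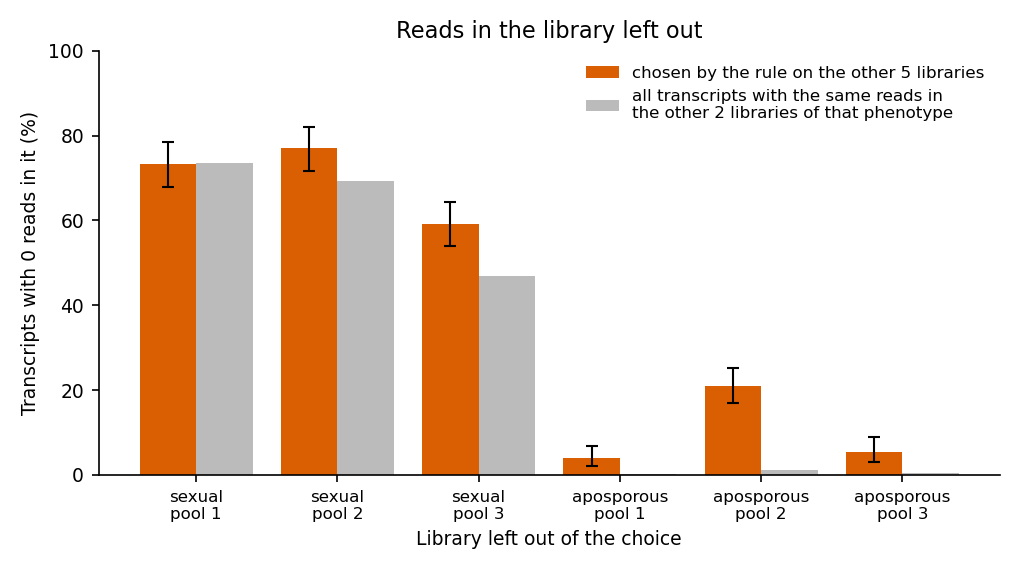
Share of transcripts with 0 reads in a library (%) when they were chosen by the rule on the other 5, with exact 95% binomial intervals, beside the share over all transcripts with the same reads in the other 2 libraries of that phenotype. It was 20.9% in aposporous pool 2 against 4.01% and 5.43% in pools 1 and 3, and 59.2% to 77.1% in the sexual pools. The share over all transcripts is not matched for level.

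By locus, members fell into a large and a small-locus part. Locus 2, the locus with the most transcripts in the table, holds 50.5% of the table and held 129 members (61.7%). Among all transcripts with 10 or more reads in each aposporous pool its share was 72.3%. That share depends on depth. Below 100 summed aposporous reads, locus 2 held 59.7% of members and 62.0% of others. The shares were 61.2% and 68.3% from 100 to below 300 reads, and 66.7% and 70.8% from 300 to below 1000. From 1000 reads on they were 64.7% and 77.5%. The 80 members outside locus 2 lay in 78 loci. Members inside and outside locus 2 had medians of 1.92 and 1.57 RPKM and of 745 and 726 nt, and a median CV of 46.3% and 46.4%. Pool 2 was highest for 88 of the 129 and for 46 of the 80. Of the 80 transcripts with 0 reads in aposporous pool 2 described above, 33 (41.2%) belonged to locus 2.

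Outside locus 2, 44 of the 78 loci (56.4%) had no transcript in the table other than the member. Since the table holds part of the assembly, reads on the remaining transcripts of these loci are not known. The share was close to that of all 5133 such loci with a transcript of 10 or more reads in each aposporous pool, of which 54.0% had a single transcript. The 44 members had a median of 1.54 RPKM and reached 34.9 RPKM in L3451_T15_28. At 5 loci the assembler itself had built a single transcript. In another 9 loci, with 11 members, the other transcripts also had 0 sexual reads. Their summed level, as a mean over aposporous pools, was at most 0.794 RPKM. At 53 of the 78 loci, every transcript in the table was thus at 0 reads in the sexual pools. For 44 of them the member is the only transcript, so the rule fixed this in advance.

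Locus 47135 was the only locus outside locus 2 with more than 1 member. Its 3 members were all short and all highest in pool 2. L47135_T7_29 was at 15.5, 22.3 and 5.28 RPKM in aposporous pools 1 to 3, L47135_T14_29 at 8.39, 13.7 and 2.81, and L47135_T27_29 at 2.21, 5.87 and 1.36. All 3 share the order of pools, with pool 3 lowest. The fourth transcript of the locus, L47135_T22_29, had 4, 3 and 2 reads in the aposporous pools and 0 in the sexual pools. Whether the 3 share reads was not tested.

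At 15 loci the other transcripts had 10 or more reads in every sexual pool. The member there was the minor part of the locus, with a median of 3.79% of its aposporous reads. Locus 1783 had the highest sexual level, where the other transcripts summed to 137, 115 and 85.5 RPKM in sexual pools 1 to 3 and to 69.6, 71.4 and 77.4 RPKM in the aposporous pools. Its member L1783_T39_60 was at 1.69, 4.86 and 2.44 RPKM in the aposporous pools. At locus 849 the others summed to 61.4 ± 5.37 RPKM over sexual pools and to 71.1 ± 18.9 RPKM over aposporous pools (SD, n = 3 pools each), and the member L849_T93_154 was at 0.831 ± 0.490 RPKM (SD, n = 3). At locus 1098 they summed to 59.8 ± 18.3 RPKM over sexual and 51.8 ± 10.1 RPKM over aposporous pools (SD, n = 3), and the member L1098_T27_102 was at 4.33 ± 1.63 RPKM (SD, n = 3). An exception was locus 4713, where the member held 77.7% of the reads.

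The sums of the other transcripts do not contain the members' own values, and they were tested with limma over the 6797 loci outside locus 2 that passed the same filter. Of these, 30 (0.441%) were called in either direction. Of the 20 member loci tested, 1 was called. None of the 15 loci with 10 or more sexual reads was called (limma, lowest FDR = 0.131). Their log2 fold changes ran from -0.60 at locus 1783 (FDR = 0.275, limma) to 1.89 at locus 1426 (FDR = 0.131, limma), with a median of 0.18, beside 0.00 over all loci tested. Of the 15, 12 were positive and 3 had an unadjusted p under 0.05 (limma), counts that were not taken over all loci. With 3 pools per phenotype, the absence of a call does not show equal levels. At locus 1426 the single other transcript was at 6.54, 3.26 and 1.77 RPKM in the sexual and 15.1, 9.96 and 24.8 RPKM in the aposporous pools. Reads shared within a locus can tie these sums to the members, and the FDR values rest on the spread between pools.

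Locus 3000 was the one that passed. Its member L3000_T18_18 was at 8.34, 9.23 and 13.7 RPKM in aposporous pools 1 to 3, and its other transcript, L3000_T3_18, had 305, 820 and 804 reads there, a mean of 31.1 ± 11.6 RPKM (SD, n = 3). L3000_T3_18 had 0, 0 and 1 read in the sexual pools and missed the rule by that read. The ratio of its scaled reads was 2029 (95% counting interval 364 to 80192, which leaves out the spread between pools). For the same transcript, limma gave a log2 fold change of 4.91 (SE 0.40, Benjamini-Hochberg FDR = 0.00209). The call held under all 11 alternatives, with FDR from 4.73e-05 to 0.0256. Both transcripts of the locus in the table, of 18 that the assembler built, were thus at 0 or 1 read in every sexual pool. The transcript is itself a near miss of the rule and stands for no separate support of the list.

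**Figure D4:**
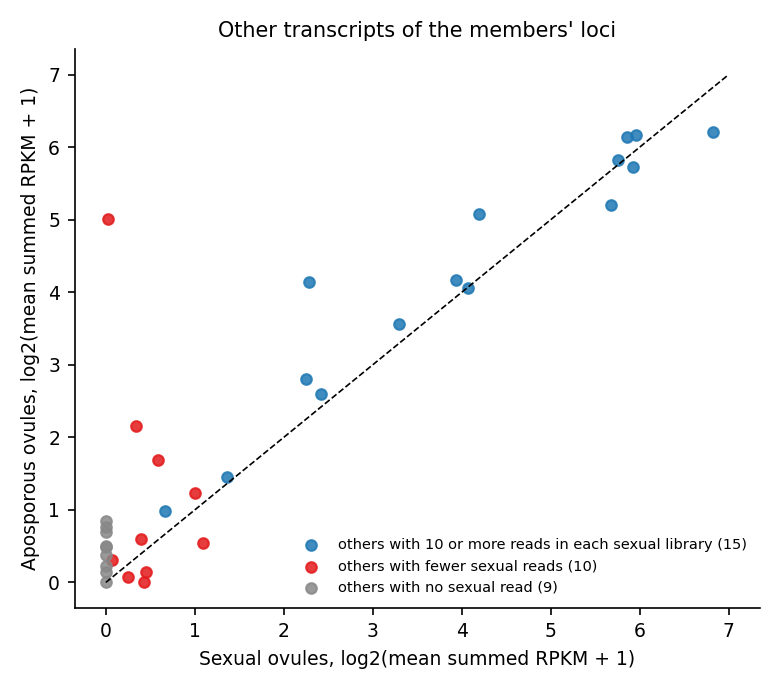
Summed level of the transcripts that are not members at 34 loci with a member, as log2 of mean RPKM plus 1, in sexual (horizontal) and aposporous ovules (vertical), 1 point per locus. The dashed line marks equal levels. The 15 loci read in every sexual pool have a median log2 fold change of 0.18, and locus 3000 stands at the upper left, at 0.0170 against 31.1 RPKM.

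At the remaining 9 of the 10 loci whose other transcripts had some sexual reads, mean sexual levels were at most 1.14 RPKM. The highest single value was 3.13 RPKM, at locus 18837 in sexual pool 3. At locus 10633 the other transcript had 0, 0 and 17 reads in the sexual pools, beside 29, 2 and 213 in the aposporous pools. At locus 12198 it was the reverse of the member, with 0, 35 and 3 reads in the sexual and 0 reads in all aposporous pools over 2 transcripts. None of the 78 loci also held a transcript of the exchanged list. Of the 57 transcripts of that list, 36 lay in locus 2, so few could fall in these loci. The share over all loci was not counted, and nothing is read from this absence.

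Locus 2 is too large for a sum over the locus to describe relatives of a member, so transcripts whose numbers lay within 20 of a member were taken as its neighbours. Number is a loose guide to relatedness. Of the 15 family variants in locus 2, 5 pairs lay within 20 numbers of each other, and 3 of the pairs aligned to the same gene. Of the 129 members in locus 2, 61 (47.3%) had a neighbour with 10 or more reads in each sexual pool, against 54.1% of the 20053 other locus 2 transcripts with 10 or more reads in each aposporous pool. The neighbours of these 61 had median sums of 14.0 RPKM over sexual and 12.3 RPKM over aposporous pools. A further 18 members (14.0%) had no neighbour in the table, against 25.6% of the others. For 13 members the neighbours had no sexual read at all. For some of the 13, such as L2_T817248_835163, the only neighbour was itself a member, so the rule fixed its 0 sexual reads. No share over other transcripts was counted for this class. For 37 members the neighbours had sexual reads, but no single neighbour reached 10 in each sexual pool. Their summed reads could still be many, up to 14.6 RPKM in sexual pool 2 for the neighbours of L2_T90901_835163, a member named after its values were seen.

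Some members of locus 2 lay near each other. Of the 129, 20 (15.5%) had another member within 20 numbers, in 10 pairs, while 0.514% of the 20053 others had a member that near. Whether paired transcripts share reads was not tested. The most abundant member, L2_T817237_835163, was paired with L2_T817248_835163, which was at 6.08, 8.84 and 4.38 RPKM in aposporous pools 1 to 3. L2_T675736_835163, at 23.8, 41.2 and 23.0 RPKM, was paired with L2_T675729_835163, at 0.891, 4.98 and 0.552 RPKM. Pool 2 was highest in all 4. In the pair L2_T194469_835163 and L2_T194479_835163 the order differed, with 0.541, 1.70 and 3.81 RPKM for the former and 1.55, 3.03 and 2.78 RPKM for the latter. These 3 pairs were picked after their values were seen. In locus 2, 1 member had a transcript of the exchanged list as a neighbour, and the share over other transcripts was not counted.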

How the data were processed

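RNA of laser-microdissected nucellus was sequenced for 3 sexual and 3 aposporous pools. The authors mapped each library to the *de novo* assembly with CLC Genomics Workbench V 7 at default parameters and deposited RPKM. How reads were filtered and how those with several matches were placed was not found in the methods. Pools were assigned by their labels, and 0 columns lacked one. Multiplied by length, 100% of values in each library were whole multiples of 1 number to within 0.05 read, and this gave the reads. The members and lists were chosen with earlier results of these data known. The authors used a count test with TMM scaling. Because the deposited unit is RPKM, limma 3.58.1 (R 4.3.3, trend and robust options) on log2(RPKM + 1) was chosen here, with voom on the recovered reads as an alternative. It was tested on simulated data, with Benjamini-Hochberg FDR at 0.05 and no scaling beyond RPKM. Without 1 pool, the filter asked for 10 reads in as many libraries as the smaller group held. Transcripts were named by rule: the 3 highest, the one with most reads, the longest and shortest, the smallest and largest CV, those just inside and outside the threshold, loci with 2 or more members, the 3 loci with the highest other transcripts, and annotated near misses. All other names were chosen after their values were seen. Other read minimums, pseudocounts, scalings, filters, voom, a replicate block and the omission of each pool were tried. Neighbours in locus 2 were defined after the data were seen. Figures used matplotlib 3.10.9, and other steps used pandas 2.3.3, numpy 2.4.6 and scipy 1.17.1 under Python 3.11.15.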

Additional observations from a re-analysis of the deposited data

How the results depend on the processing

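The list depends on its thresholds. It held 404 transcripts with at least 5 reads in each aposporous library, 110 with at least 20, and 361 with up to 3 reads summed over the sexual libraries. Leaving out 1 library gave 258 to 383. Its share in locus 2, 61.7%, was 55.2% with at least 5 reads, ran up to 65.4% with up to 3 sexual reads, and was 50.1% without aposporous replicate 2, near the 50.5% of the whole table. Calls higher in aposporous ovules numbered 497, and fell to 262 without a filter, 30 with at least 10 reads in every library (which no member can pass) and 272 with voom, and to 92 to 354 without 1 library. Calls among members numbered 103, 167 with a pseudocount of 0.1 RPKM, 44 without a filter and 14 to 55 without 1 library. With a replicate block by pool number, 264 transcripts and 42 members were called. Same-numbered pools correlated at 0.05, 0.06 and 0.04 in their deviations, so the number is not taken to pair them, although each pool correlated best with its own number. Locus sums gave 1 called member locus in each of 11 alternatives. The log2 fold change of the other transcripts at locus 1098 was -0.18, ran from -0.32 to 0.057 without 1 library and turned positive without sexual replicate 2 (0.057). TMM scaling moved the median over loci from 0.00 to 0.13. The causes were not tested. At 10 reads per pool, counting error alone is wide, and the median member had 131 reads over the aposporous pools.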
